A study of Mus musculus with 2 samples.

Results

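Nascent transcription of 10 nuclear receptor genes was followed with and without interleukin-4 (IL-4) in mouse BMDMs, macrophages grown from bone marrow, using global run-on sequencing (GRO-seq). The genes were the retinoid X receptor (RXR) genes Rxra and Rxrb, their partner genes Pparg, Ppard, Rara, Vdr and Nr4a1, and 3 receptor genes that work without RXR, namely Nr1d1, Nr1d2 and Nr3c1. They were chosen by name, as all rows of either transcript list whose gene name was one of the 10, out of 11054 gene names in all. The control list held 80 such transcripts of 43122, and the IL-4 list held 84 of 51365. Among the 10 genes, 9 had a transcript in the control list and 8 had one in the IL-4 list.

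Both groups were wild-type (Wt) BMDMs from mice 8 to 12 weeks of age on the C57BL/6 background, grown for 6 days with supernatant of L929 cells, a fibroblast line that secretes macrophage colony-stimulating factor. The control cells received no IL-4, and the other cells received 20 ng/ml IL-4 for 1 hr. IL-4 is a type 2 cytokine that acts through STAT6 and sets macrophages on the alternative path of polarization. In GRO-seq, nuclei are isolated and the engaged RNA polymerases are allowed to run on with a labeled nucleotide, so the captured RNA marks where polymerases were at work. Duplicate run-on reactions were pooled into 1 library per group. Hence n = 1 for every value given here, no difference has a replicate check, and no p-value is given.

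Nuclear receptors are transcription factors, most of which are switched by small lipophilic ligands. RXRs bind DNA as obligate partners of other receptors, among them the fatty acid sensors PPARγ and PPARδ, the retinoic acid receptor RARα and the vitamin D receptor, and RXR can also pair with the orphan receptor NUR77, the product of Nr4a1. In macrophages, PPARγ is known as an IL-4-inducible receptor that controls lipid uptake and storage. The REV-ERB proteins encoded by Nr1d1 and Nr1d2 are heme-binding repressors of the circadian clock, and Nr3c1 encodes the glucocorticoid receptor.

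Each transcript in the lists was a strand-specific segment of contiguous run-on signal with a position, a length and a score printed to 1 decimal. Of the transcripts named for a gene in a library, the highest score was taken as the gene value. Scores were lower overall after IL-4, with a median transcript score of 0.3 in control and 0.2 after IL-4. Transcripts were also longer, the median length being 227 bp without and 312 bp with IL-4. For this reason log2 ratios (IL-4 over control) were centered on its median over all 8879 genes with a value in both libraries, which was -0.38 before centering. A centered ratio of at least 2-fold in either direction was used as the threshold for a call. Because printing to 1 decimal leaves an error of up to 0.05 in a score, ratios are followed by the range that this rounding allows, which is not a replicate error. Read depth is unknown, because the lists give scores and no read counts.

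The cell type was checked against markers. Of 10 macrophage marker genes, 8 had a value in both libraries and none of these passed the 2-fold threshold. The others, Adgre1 (F4/80) and Spi1 (PU.1), had no transcript under these symbols, but the transcripts on their strand within the genes carry the older symbols Emr1 and Sfpi1, with a highest score of 1.6 in control and 1.4 after IL-4 for Adgre1 and of 0.9 and 0.6 for Spi1. The summed value of the macrophage markers was 21.5 in control and 21.1 after IL-4. Of these sums, Cd68 supplied 5.8 and 7.3, so they depend in part on this gene. Those Cd68 scores came from transcripts that did not lie on its strand within the gene, where the highest scores were 1.2 and 0.8. Of 20 markers of other cell types, 15 had no transcript in either library, including the fibroblast collagens Col1a1 and Col3a1 and the T cell gene Cd3e, and the summed values were 2.1 and 1.7. Mpo, the myeloperoxidase gene of granulocyte precursors, scored 0.6 in control only, and the neutrophil gene S100a8 scored 0.5 without and 0.3 with IL-4. The values under the names Cd8a and Cd79a came from transcripts that did not lie on the strand of these genes within them. The part of other cells in the results was not tested.

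Promoter sequence helps to place the transcripts, because several of the receptor genes have more than 1 start. RefSeq (GRCm38.p6) start windows, each running from 250 bases before to 50 bases after a start, matched 9 of the 10 genes with 16 windows in all. These were searched on both strands for the nuclear receptor half-site AGGTCA, 2 STAT palindromes (TTCNNNGAA, and the wider form preferred by STAT6 with 4 free bases between TTC and GAA), and the E-box CACGTG. The half-site AGGTCA was present in 5 of the 16 windows (2 of Pparg and 1 each of Rara, Rxra and Nr1d2) and in 16.3% of all 32851 windows. The wider STAT form was present in 1 window (Vdr; 6.95% of all windows), TTCNNNGAA in 1 (Rara; 8.30%) and CACGTG in 2 overlapping windows of Rara (7.15%). No match of one motif overlapped a match of another. A match is a description of these letters and shows no binding.

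Windows of Rara, Pparg, Rxrb and Nr4a1 are printed here because transcripts described below begin at them or reach into them, each 5′ to 3′ on the gene's strand, in lower case with motif matches in capitals. Not every such window is printed. That of Ppard, where transcripts also begin, holds no match and is left out.
Rara, first start cluster, chr11:98937468-98937767 (+), CACGTG at position -10 from the start: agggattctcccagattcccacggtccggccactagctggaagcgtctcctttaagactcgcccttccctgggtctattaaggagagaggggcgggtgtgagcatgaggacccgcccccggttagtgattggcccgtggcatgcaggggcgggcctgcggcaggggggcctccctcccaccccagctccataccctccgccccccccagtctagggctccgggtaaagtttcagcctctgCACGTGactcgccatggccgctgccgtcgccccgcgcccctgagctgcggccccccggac
Rara, second start, chr11:98939461-98939760 (+), TTCNNNGAA at position -197: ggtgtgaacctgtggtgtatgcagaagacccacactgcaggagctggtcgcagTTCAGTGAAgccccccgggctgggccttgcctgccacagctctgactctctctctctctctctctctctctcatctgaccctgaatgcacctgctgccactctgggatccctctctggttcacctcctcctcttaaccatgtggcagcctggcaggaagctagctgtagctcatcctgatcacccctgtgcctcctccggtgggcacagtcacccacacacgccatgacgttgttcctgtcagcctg
Rara, downstream start, chr11:98964622-98964921 (+), AGGTCA at position 33: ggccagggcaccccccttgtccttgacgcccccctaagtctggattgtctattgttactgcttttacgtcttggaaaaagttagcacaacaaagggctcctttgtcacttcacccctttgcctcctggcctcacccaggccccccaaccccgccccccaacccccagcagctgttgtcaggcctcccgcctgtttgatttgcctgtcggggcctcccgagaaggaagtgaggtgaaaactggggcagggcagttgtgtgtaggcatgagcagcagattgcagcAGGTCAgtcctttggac
Pparg, first start, chr6:115360894-115361193 (+), AGGTCA at position -28: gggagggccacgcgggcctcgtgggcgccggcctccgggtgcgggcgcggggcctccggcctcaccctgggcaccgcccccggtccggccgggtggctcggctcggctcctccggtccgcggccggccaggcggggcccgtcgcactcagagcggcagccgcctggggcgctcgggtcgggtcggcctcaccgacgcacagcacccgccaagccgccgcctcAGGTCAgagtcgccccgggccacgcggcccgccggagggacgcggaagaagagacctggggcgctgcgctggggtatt
Pparg, second start, chr6:115362099-115362398 (+), AGGTCA at position -9: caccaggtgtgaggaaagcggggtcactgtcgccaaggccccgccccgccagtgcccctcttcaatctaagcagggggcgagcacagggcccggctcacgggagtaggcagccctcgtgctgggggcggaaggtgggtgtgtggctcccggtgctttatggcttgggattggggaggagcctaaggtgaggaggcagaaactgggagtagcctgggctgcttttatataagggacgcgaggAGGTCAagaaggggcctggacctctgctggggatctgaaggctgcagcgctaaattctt
Rxrb, first start, chr17:34031562-34031861 (+), no match: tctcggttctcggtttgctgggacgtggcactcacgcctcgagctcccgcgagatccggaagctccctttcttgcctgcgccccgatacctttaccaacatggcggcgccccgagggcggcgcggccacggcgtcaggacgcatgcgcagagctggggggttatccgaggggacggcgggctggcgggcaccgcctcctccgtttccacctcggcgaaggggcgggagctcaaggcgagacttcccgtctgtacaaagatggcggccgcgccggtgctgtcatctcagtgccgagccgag
Nr4a1, chr15:101266596-101266895 (+), no match: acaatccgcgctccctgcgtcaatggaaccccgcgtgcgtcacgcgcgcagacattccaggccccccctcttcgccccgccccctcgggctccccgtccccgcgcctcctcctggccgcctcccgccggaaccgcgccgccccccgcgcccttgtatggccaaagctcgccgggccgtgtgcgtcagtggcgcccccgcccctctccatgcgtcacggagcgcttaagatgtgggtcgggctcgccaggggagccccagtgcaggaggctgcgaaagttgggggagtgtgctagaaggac

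By gene value, none of the 10 receptor genes was at least 2-fold higher after IL-4 and 1, Ppard, was at least 2-fold lower. Over all genes tested, 8.06% were called higher and 8.62% lower. Of the other genes, 7 had a value in both libraries and passed neither threshold, Nr4a1 had a value in control only, and Vdr had none. The median centered log2 ratio of the 8 genes with both values was -0.35, with a range from -1.04 (Ppard) to 0.79 (Rara). The rounding range included 0 for 2 of them, Nr3c1 and Nr1d1. The Nr1d1 value is counted by name only, as it came from transcripts on the other strand, described below. In the plot of gene values, Rara was the single gene whose score was higher after IL-4 than in control, and Rxrb had equal scores.

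**Figure D1:**
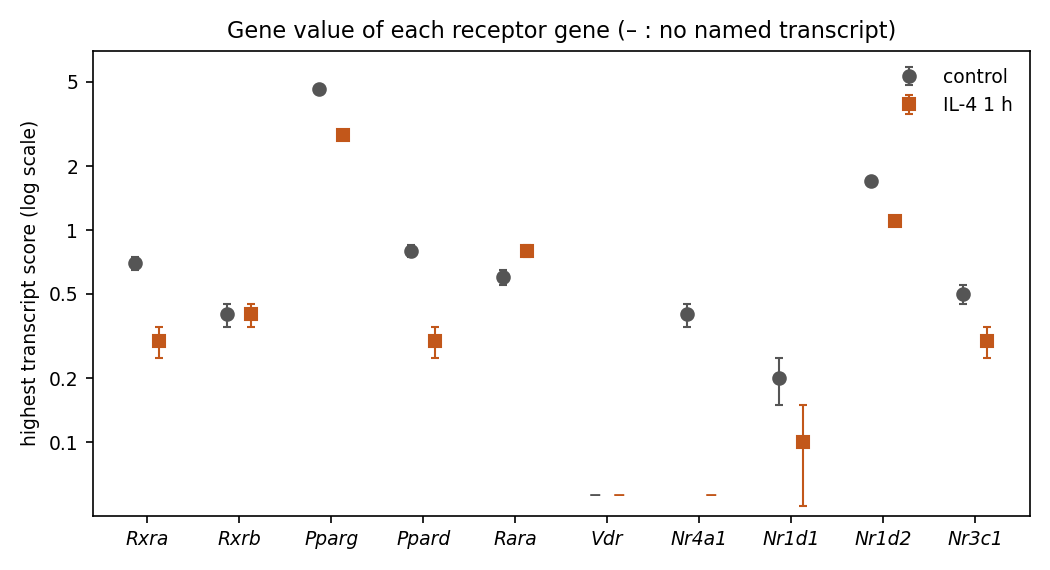
Gene value (highest transcript score, log axis) of each receptor gene in the control library (gray circles) and the IL-4 library (orange squares). Bars show the 0.05 on either side that rounding allows, not a replicate error; a dash marks a library with no named transcript, as for Vdr in both libraries and Nr4a1 after IL-4, and the Rara value is 0.6 in control and 0.8 after IL-4.

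The receptor genes also differed in how much of each gene was covered by called transcripts. Only transcripts lying on the gene's own strand and overlapping the annotated gene (GENCODE M21, mm10) were used for this, whatever name they carried. The measure is the covered share of a gene's length, and it still depends on that length. A single promoter segment covers more of a short gene such as Rxrb (6588 bp) than of a long one such as Pparg (129449 bp). The order is therefore a description of coverage and not a ranking of transcription. In control the order was Rxrb (12.8% of the gene covered), Rxra (9.24%), Ppard (6.39%), Rara (2.54%), Pparg (1.96%), Nr3c1 (1.94%), Nr1d2 (1.71%) and Nr4a1 (0.672%), with no coverage of Nr1d1 or Vdr. After IL-4 Rara stood first at 26.0%, ahead of Rxrb (20.7%), Ppard (8.66%), Rxra (7.15%), Pparg (3.02%), Nr3c1 (2.01%) and Nr1d2 (1.55%), and Nr4a1, Nr1d1 and Vdr had none. With 1 library per group, no neighbors in either order can be said to differ.

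**Figure D2:**
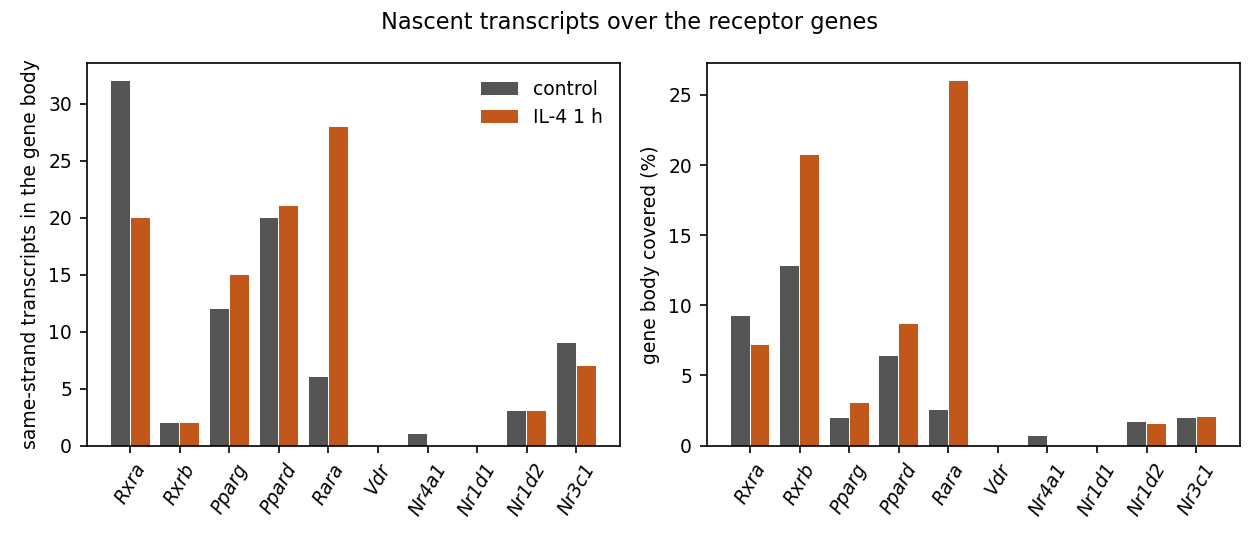
Number of same-strand transcripts in the gene body (left) and percent of the gene body they cover (right) for each receptor gene in control (gray) and IL-4 (orange) libraries, 1 library each. Rara goes from 6 to 28 transcripts and from 2.54% to 26.0% coverage, while Rxra goes from 32 to 20 transcripts.

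Changes in coverage were read against the median gene, whose covered bases after IL-4 were 1.37 times those in control. Against this median, covered bases were at least 2-fold higher for 1 receptor gene (Rara) of the 7 with same-strand transcripts in both libraries, and at least 2-fold lower for none. The corresponding shares of all 8185 genes were 16.7% higher and 13.7% lower. By the number of transcripts carrying the gene's name, Rara was also the only one of the 5 receptor genes with at least 5 transcripts in a library that was at least 2-fold higher, and none was at least 2-fold lower. Among 3472 such genes, 21.5% were at least 2-fold higher and 11.9% lower in number.

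Many of the named transcripts lay at places seen in 1 library only. In control 40 of the 80 receptor transcripts (50%) had no same-strand counterpart in the IL-4 list, against 37.4% of all control transcripts. After IL-4 44 of 84 (52.4%) had none in the control list, against 48.1% of all. Most of these were weak. With the count limited to transcripts with a score of at least 0.3, 11 of 36 in control (30.6%) and 4 of 18 after IL-4 (22.2%) had no counterpart, against 22.5% and 19.7% of all transcripts at this score. Where transcripts could be matched, 26 of 40 receptor transcripts had a lower score after IL-4 and 6 a higher one, while 54.3% of 26998 matched transcripts over the genome were lower and 22.8% were higher.

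Rxra (ENSMUSG00000015846, chr2:27676440-27762957, plus strand) encodes RXRα, the main RXR of macrophages. Its value was 0.7 in control and 0.3 after IL-4, a centered log2 ratio of -0.84 (rounding range -1.21 to -0.51), which did not reach the 2-fold threshold. The number of same-strand transcripts within the gene was 32 without IL-4 and 20 with it. Of these, 15 in control but 1 after IL-4 had a score of at least 0.3. Over all transcripts, 23544 of 43122 in control and 18528 of 51365 after IL-4 reached this score. Rxra was thus dotted with short transcripts in both libraries, and those after IL-4 had lower scores before centering.

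The individual positions of Rxra showed the same order. Of 13 matched transcripts, 9 had a lower score after IL-4, 2 were equal and 2 were higher, and 23 of 36 control transcripts had no counterpart. The transcript nearest the start, in intron 1, had a score of 0.4 in control (chr2:27678653-27678882) and 0.1 after IL-4 (chr2:27678796-27679117). A transcript in an RMER17C repeat of intron 1 (chr2:27705122-27705326 in control) scored 0.7 without and 0.3 with IL-4. The other control transcript with a score of 0.7, in intron 4 (chr2:27742759-27742850), had no counterpart. Some positions ran against this order. The library after IL-4 held a 667 bp transcript in intron 1 (chr2:27686640-27687306, score 0.1) that was missing in control, and a transcript of 0.1 at chr2:27709689-27709956, 397 bases downstream of the second RefSeq start, was also found after IL-4 only. Summed over named transcripts, score times length was 2107 in control and 835 after IL-4, which made a centered log2 ratio of -1.49. Rxra thus passed the 2-fold threshold by this sum, and also by the transcript nearest the start (-2.00) and with repeat transcripts left out (0.7 and 0.2, -1.49). Under these settings 16.9%, 26.8% and 11.3% of all genes were called lower, respectively. For the transcript nearest the start, equal scores gave a ratio of 0 (Rxrb, 0.4 in both libraries). Centering thus shifted no ratio in that setting, and the lower scores after IL-4 remain in the -2.00.

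**Figure D3:**
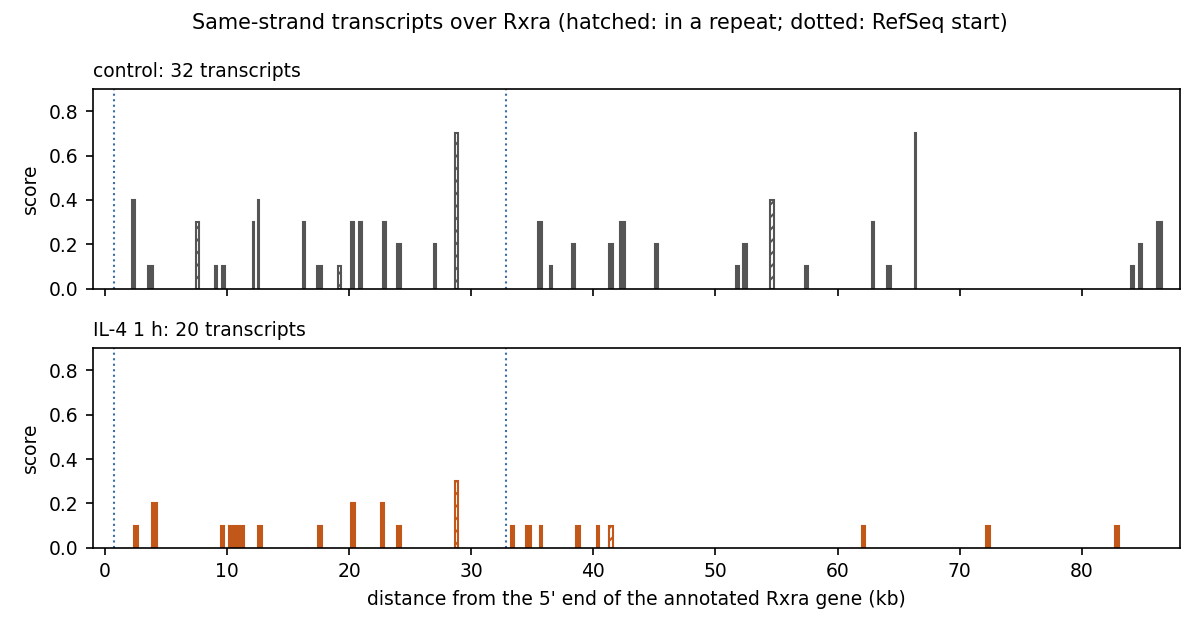
Same-strand transcripts over Rxra, by distance from the annotated 5′ end (kb, x axis) and score (y axis), in control (top, 32 transcripts) and after IL-4 (bottom, 20 transcripts). Hatched bars lie in repeats and dotted lines mark RefSeq starts; scores reach 0.7 in control and 0.3 after IL-4.

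Transcripts also continued past the annotated 3′ end of Rxra. In control 4 plus-strand transcripts with the name Rxra lay downstream of the gene, and after IL-4 2 did. Their scores were between 0.1 and 0.2 in both libraries.

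Rxrb (ENSMUSG00000039656, chr17:34031812-34038399, plus strand) encodes RXRβ and is a short gene. It had 1 named transcript in each library, at the promoter window printed above. That transcript scored 0.4 in both libraries (centered log2 ratio 0.38, rounding range 0.02 to 0.74). It began 3 bases before the annotated start in control (chr17:34031809-34032269, 461 bp) and 6 bases after it following IL-4 (chr17:34031818-34032972, 1155 bp). The promoter segment was thus longer at an equal score, while 19393 of 26998 matched transcripts over all genes were also longer after IL-4. A second same-strand transcript at the 3′ end, named for the neighboring gene Col11a2, had 0.2 in control and 0.1 after IL-4. Rxrg, the third RXR gene, had no transcript in either library.

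Pparg (ENSMUSG00000000440, chr6:115360951-115490399, plus strand), the gene of PPARγ, scored 4.6 without and 2.8 with IL-4 (centered log2 ratio -0.34, rounding range -0.38 to -0.30). That score came from a short transcript in a (TTTTG)n simple repeat of intron 2, 152 bp long in control (chr6:115405627-115405778) and 94 bp after IL-4 (chr6:115405627-115405720). The next transcript, 2.8 in control and 2.1 after IL-4 (chr6:115408065-115408174 in control), also began in a (TTTTG)n repeat, and a (TTG)n repeat held a transcript of 1.0 in both libraries. Repeats held 7 of 13 named transcripts in control and 5 of 14 after IL-4. With repeat transcripts left out, the highest score was 0.3 in control and 0.8 after IL-4, a centered log2 ratio of 1.74, so that the direction turned. How much of the repeat signal arose at this gene was not tested.

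Outside the repeats, Pparg had low scores at its promoter and a few intronic positions. At the first start, whose window carries AGGTCA, the transcript had 0.3 in control (chr6:115361087-115361446) and 0.2 after IL-4 (chr6:115361046-115361425). At the second start, whose window also carries AGGTCA, a transcript of 0.2 (chr6:115362215-115362537) was found after IL-4 only. The 0.8 after IL-4 lay in intron 6 (chr6:115474922-115475124). There the control transcript, annotated to a T-rich stretch, had 0.3. Among 8 matched transcripts this was the only one that was higher after IL-4, with 6 lower and 1 equal. The number of same-strand transcripts was 12 without and 15 with IL-4, their covered length 2536 and 3912 bases, and score times length 1609 and 1608. These measures put Pparg close to the median gene, with centered log2 ratios of 0.17 for covered bases and -0.15 for score times length.

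Ppard (ENSMUSG00000002250, chr17:28232700-28301474, plus strand) encodes PPARδ, a fatty acid-activated receptor expressed in most cell types. Its value was 0.8 in control and 0.3 after IL-4, a centered log2 ratio of -1.04 (rounding range -1.39 to -0.72), and this was the one call among the 10 genes. The control value came from an 88 bp transcript in a polypurine stretch of intron 2 (chr17:28246715-28246802), where a transcript of 354 bp scored 0.3 after IL-4. At the promoter the score was 0.5 in control (chr17:28232720-28232964) and 0.3 after IL-4 (chr17:28232722-28233000), a log2 ratio of -0.74. Centering shifted no ratio in this setting, the transcript nearest the start, so -0.74 is not on the same scale as -1.04. With repeat transcripts left out the ratio was -0.42, and the call was lost.

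Names and position differed at this gene. Only 7 transcripts in control and 8 after IL-4 carried the name Ppard, but 20 and 21 lay on its strand within it, since those further downstream were named for 1810013A23Rik or Fance. The highest score within the gene was 1.7 in control and 0.8 after IL-4, in a (TTTTG)n repeat of intron 3, with a centered log2 ratio of -0.72 that did not reach 2-fold. Scores of at least 0.3 were held by 12 of the 20 control transcripts and by 6 of the 21 after IL-4. Over all transcripts, 23544 of 43122 in control and 18528 of 51365 after IL-4 reached this score. The covered length of Ppard was 4392 bases in control and 5958 after IL-4, and against the median gene this was a centered log2 ratio of -0.015. Ppard was thus lower in score and near the median gene in extent.

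Rara (ENSMUSG00000037992, chr11:98927818-98974942, plus strand) encodes RARα, the retinoic acid receptor, which binds DNA with RXR. Its value was 0.6 in control and 0.8 after IL-4, a centered log2 ratio of 0.79 (rounding range 0.58 to 1.01), short of the threshold although the rounding range reached it. Named transcripts numbered 5 in control and 26 after IL-4, and 22 of those 26 had no counterpart in control. On the gene's strand, 6 transcripts covered 1196 bases in control and 28 covered 12242 bases after IL-4. This was a 10.2-fold difference in covered bases, or 7.47-fold against the median gene. Of 8185 genes, 108 had a ratio at least as large. For the transcript number, 141 of 3472 genes had a ratio as large as that of Rara or larger.

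The added transcripts were spread over the gene from its first RefSeq start onwards. In control the longest stretch between neighboring same-strand transcripts was 17857 bases, and after IL-4 it was 4563 bases. The longest single transcript measured 280 bp without and 1343 bp with IL-4. Scores of the transcripts after IL-4 were mostly low, and 7 of the 28 were at 0.3 or above against 2 of the 6 in control. Over all transcripts, 23544 of 43122 in control and 18528 of 51365 after IL-4 reached this score. Score times length, summed over the named transcripts of Rara, came to 239 without and 2358 with IL-4 (centered log2 ratio 3.15).

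**Figure D4:**
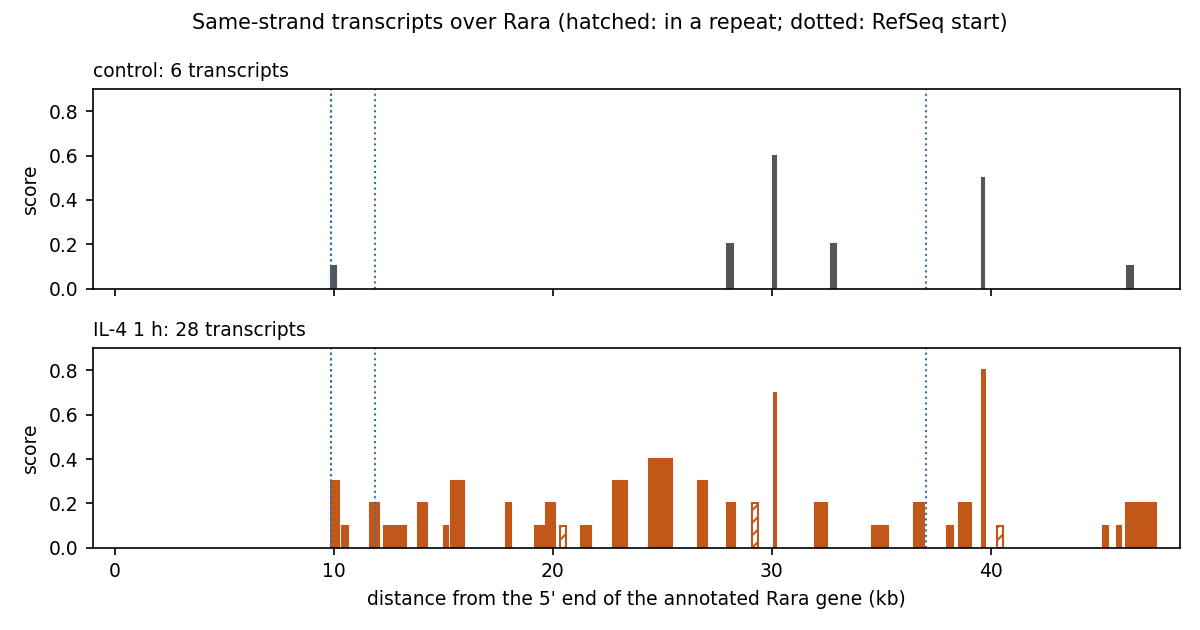
Same-strand transcripts over Rara, by distance from the annotated 5′ end (kb, x axis) and score (y axis), in control (top, 6 transcripts) and after IL-4 (bottom, 28 transcripts). Hatched bars lie in repeats and dotted lines mark RefSeq starts; transcripts after IL-4 run from the first RefSeq start to the 3′ end, with scores from 0.1 to 0.8.

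The starts of Rara differed in what was seen at them. At the first start cluster, whose window carries CACGTG, the transcript scored 0.1 in control (chr11:98937680-98937907) and 0.3 after IL-4 (chr11:98937707-98938072). For the transcript nearest a start this was a log2 ratio of 1.58, which centering did not shift. At the second start, whose window carries TTCNNNGAA, a transcript of 0.2 (chr11:98939482-98939873) was called after IL-4 only. A transcript of 0.2 (chr11:98964331-98964776) that reached into the window of the downstream start was also called after IL-4 only. Neither library had a same-strand transcript between the annotated 5′ end of the gene and the first RefSeq cluster.

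Matched transcripts of Rara were few, and 3 of 4 were higher after IL-4 with the other equal. The highest scores sat at the same narrow positions in both libraries, in intron 2 (0.6 in control at chr11:98957897-98958013, 0.7 after IL-4) and in intron 3 (0.5 in control at chr11:98967433-98967528, 0.8 after IL-4). The longest transcripts after IL-4 within the introns were 1062 bp (chr11:98952206-98953267, score 0.4) and 1017 bp (chr11:98940113-98941129, score 0.1), and neither had a counterpart. The score at the 3′ UTR was 0.1 in control and 0.2 after IL-4 (chr11:98973999-98975341), in a transcript named for the neighbor Gjd3. Gene value, promoter score, number and extent all ran upward at Rara, and no other of the 8 genes with a value in both libraries had this combination.

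Vdr (ENSMUSG00000022479, chr15:97854425-97910630, minus strand), the gene of the vitamin D receptor, had no transcript by name or by position in either library. Of 5 genes listed as vitamin D receptor targets, 2 had a value in both libraries and neither was called. For Nr4a1 (ENSMUSG00000023034, chr15:101254269-101274795, plus strand), the gene of the immediate early receptor NUR77, 1 transcript was called in control and none after IL-4. It had a score of 0.4 and a length of 138 bp (chr15:101266836-101266973), and began 10 bases before the RefSeq start in the window printed above. Its relative Nr4a2 had a value of 0.2 in control only. Nr4a3 had a value of 0.2 after IL-4 only, from a transcript that did not lie on its strand within the gene. A call present in 1 library alone carries no ratio here, and absence from a list is not a measured zero.

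The 2 REV-ERB genes differed in what their names stood for. Nr1d2 (ENSMUSG00000021775, chr14:18204054-18239127, minus strand), the gene of REV-ERBβ, had 3 transcripts at the same 3 places in both libraries. The scores were 1.7 in control and 1.1 after IL-4 in intron 5 (chr14:18214340-18214527 in control), 0.5 and 0.2 in a B3A element of intron 1, and 0.3 and 0.2 in the 5′ UTR of exon 1. All 3 were lower after IL-4 before centering. The centered log2 ratio of the gene value was -0.25 (rounding range -0.36 to -0.14), and that of score times length was -1.15.

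Nr1d1 (ENSMUSG00000020889, chr11:98767932-98775333, minus strand), the gene of REV-ERBα, had 4 named transcripts in control and 1 after IL-4. The value was 0.2 and 0.1, respectively (centered log2 ratio -0.62, rounding range -1.94 to 0.38). None of these lay on the strand of Nr1d1. They were on the plus strand, and 3 of the 4 in control and the 1 after IL-4 lay inside Thra (chr11:98740638-98769006), the thyroid hormone receptor gene that overlaps the end of Nr1d1 from the other strand. No transcript was called on the strand of Nr1d1 in either library. Within Thra, plus-strand transcripts numbered 5 in control and 1 after IL-4, with highest scores of 0.2 and 0.1. The value under the name Nr1d1 is therefore not a measure of REV-ERBα transcription.

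Nr3c1 (ENSMUSG00000024431, chr18:39410545-39519421, minus strand), the gene of the glucocorticoid receptor, scored 0.5 without and 0.3 with IL-4 (centered log2 ratio -0.36, rounding range -0.76 to 0.02). Same-strand transcripts in the gene numbered 9 in control and 7 after IL-4, and covered 2113 and 2193 bases. Of 5 matched transcripts, 4 were lower after IL-4 and 1 was equal. The highest scores came from a stretch of 3 minus-strand transcripts, annotated in the deposited lists as intergenic but lying inside the gene in GENCODE. Their scores were 0.1, 0.5 and 0.5 in control and 0.1, 0.2 and 0.3 after IL-4. Plus-strand transcripts of 0.1 accompanied them, 1 in control and 2 after IL-4.

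The receptor family and its cofactors were also read from lists of known members. Calls in these lists are to be read against the 8.06% of all genes called higher and the 8.62% called lower. The family list includes the 10 receptor genes, which supply 8 of its 14 genes with both values. Its counts and median therefore repeat their values in part. The list of RXR partners likewise includes Pparg, Ppard, Rara, Vdr and Nr4a1. Of 49 nuclear receptor genes, 14 had a value in both libraries, 0 were called higher, 2 were called lower (Ppard and Nr2c1), 5 had a value in control only, 2 after IL-4 only, and 28 had none. Their median centered log2 ratio was -0.23. Nr2c1, which encodes the orphan receptor TR2, scored 0.7 without and 0.2 with IL-4 (-1.43). Among 16 receptors that can pair with RXR, 6 had a value in both libraries, with 0 higher and 1 lower (Ppard). In both lists the Nr1i2 value came from transcripts that did not lie on its strand within the gene. Nr1h3, the gene of LXRα, had a named transcript of 0.6 in control and none by name after IL-4, but on its strand within the gene the highest score was 0.6 in control and 0.3 after IL-4.

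The largest difference in these lists was in a coactivator. Ppargc1b, which encodes PGC-1β, a coactivator of nuclear receptors in mitochondrial and fatty acid metabolism, scored 0.6 in control and 2.6 after IL-4 (centered log2 ratio 2.49, rounding range 2.35 to 2.65), and its named transcripts numbered 4 and 38. Of 15 coactivator genes, 14 had both values, with a median of -0.27. Of these, 1 was higher (Ppargc1b) and 2 were lower, against 8.06% and 8.62% of all genes. Prmt1, an arginine methyltransferase, was lower at 0.5 in control and 0.1 after IL-4 (-1.94, rounding range -3.08 to -1.21). Ncoa2, a p160 coactivator, was lower at 0.6 and 0.2 (-1.21, rounding range -1.74 to -0.76). On its strand within the gene the highest scores of Ncoa2 were 0.8 and 0.5 (-0.32), so by position the call was lost. All 9 corepressor genes had both values, and 1 was lower, against 8.62% of all genes. This was Tbl1x, a subunit of the NCoR complex, at 0.5 and 0.1 (-1.94, rounding range -3.08 to -1.21).

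Calls in the lists of target genes are to be read against the 8.06% of all genes called higher and 8.62% called lower. Of 12 PPAR target genes, 5 had both values, 0 were higher and 1 was lower. This was Plin2, which encodes a lipid droplet coat protein, at 1.1 in control and 0.3 after IL-4 (-1.50, rounding range -1.82 to -1.21). Fabp4, a fatty acid-binding protein gene controlled by PPARγ, had 0.3 in control and no transcript after IL-4. Of 8 LXR target genes, 6 had both values. The cholesterol exporter gene Abcg1 was higher, at 0.7 and 1.1 (1.03, rounding range 0.86 to 1.20). The exporter gene Abca1 was lower, at 2.4 and 0.6 (-1.62, rounding range -1.78 to -1.48). Among 8 retinoid target genes, 2 had both values and were not called. The value of Cyp26b1, counted among them, came from transcripts that did not lie on its strand within the gene. Tgm2, the tissue transglutaminase gene, had 4 transcripts with a value of 0.3 after IL-4 and none in control. Of 11 glucocorticoid receptor target genes, 7 had both values and none was called, with a median of -0.04 that turned to 0.36 by same-strand overlap. Cd163 is counted there by name only, as its transcripts did not lie on its strand within the gene.

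In the list of 19 clock genes around the REV-ERB proteins, 8 had both values, with a median of -0.49. Of these, 1 was higher and 2 were lower, against 8.06% and 8.62% of all genes. This list includes Nr1d1 and Nr1d2 themselves, and the Nr1d1 value came from transcripts on the other strand. Nfil3, a bZIP repressor gene that REV-ERBα controls, was higher at 0.3 in control and 1.2 after IL-4 (2.38, rounding range 2.09 to 2.70), with 1 and 14 named transcripts. Both of these scores came from plus-strand transcripts upstream of Nfil3, which lies on the minus strand, and on its own strand within the gene no transcript was called in control and 11 were called after IL-4, with a highest score of 0.7. Tef, a bZIP activator gene of the clock, was lower at 5.0 and 1.8 (-1.10, rounding range -1.15 to -1.04). Bhlhe41, a clock repressor gene, was lower at 0.3 and 0.1 (-1.21, rounding range -2.43 to -0.36). The plot of the lists shows that most genes of each list lay between the 2-fold lines.

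**Figure D5:**
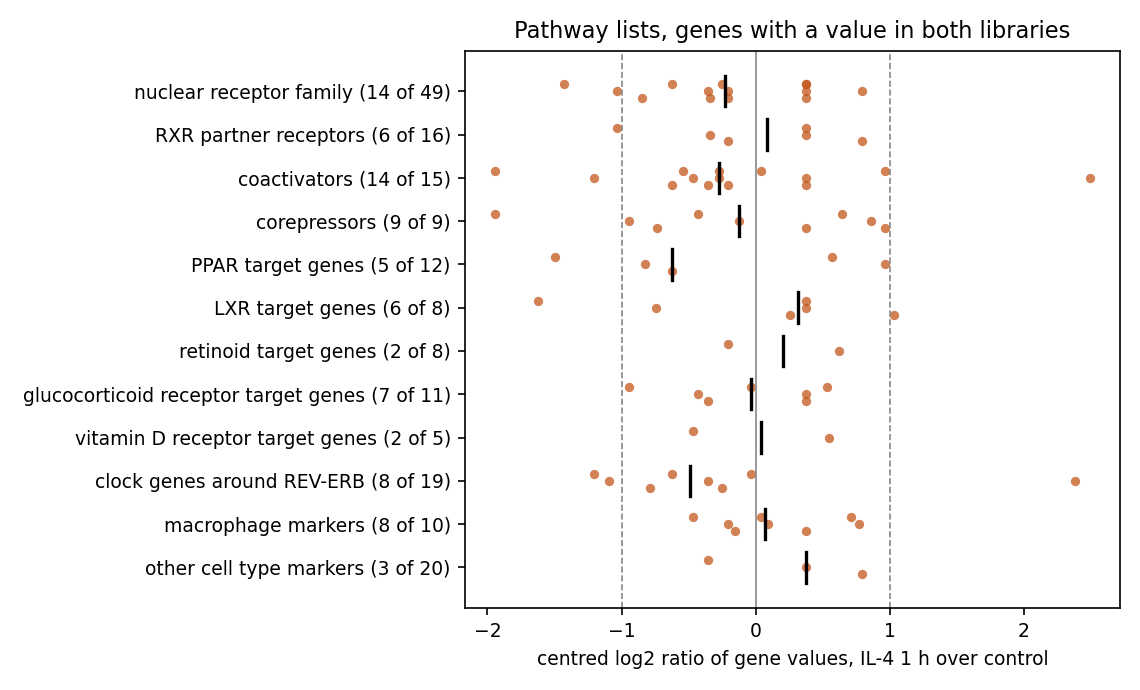
Centered log2 ratio of gene values (IL-4 over control) for the genes of each list with a value in both libraries (number of those and list size in brackets). Each point is 1 gene, black bars mark list medians and dashed lines the 2-fold threshold; Ppargc1b at 2.49 and Nfil3 at 2.38, the latter from transcripts upstream of the gene on the other strand, lie furthest to the right.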

How the data were processed

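The deposited files were 2 lists of GRO-seq transcripts, 1 per group. Per the labels and the methods of the authors, reads were aligned to mm10 with BWA (0.7.10 in the submitters' processing notes, which also name SAMtools 0.1.19), blacklisted regions were removed, and transcripts were called per library and annotated with HOMER (4.2). The only measurement was a score per transcript, deposited to 1 decimal. Its scaling is not given in the sources used here, and read depth is unknown.

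Gene values, centered log2 ratios, the 2-fold threshold and rounding ranges (0.05 on either side of a score) were computed as described with the results, in Python 3.11.15 with pandas 2.3.3 and NumPy 2.4.6, and tested on simulated data. Figures used matplotlib 3.10.9. Transcripts of the libraries were matched by at least 1 bp on the same strand. Gene positions came from GENCODE M21, and promoter windows from RefSeq. With 1 library per group no statistical test was made. Lists are described by counts and medians, also by score times length and same-strand overlap. All 10 receptor genes were described. From each list, the 3 largest changes in each direction were named among genes past 2-fold that reached the median gene value of a library (0.5 in control, 0.3 after IL-4), and genes with a value in 1 library only and of at least 0.5. Fabp4, Tgm2, Bhlhe41, Nr4a2, Nr4a3, Rxrg, Thra, Cyp26b1, Cd163 and Nr1i2 were named after their values were seen. The receptor genes and lists were chosen with earlier results of these data known. Protein sequences were not analysed here.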

Additional observations from a re-analysis of the deposited data

How the results depend on the processing

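The 1 receptor gene called by its value, Ppard, kept its direction under every alternative tried, but its call was often lost. It fell short of 2-fold by score times length (-0.64), the transcript nearest the start (-0.74) and same-strand overlap (-0.72). The same held with repeat transcripts left out (-0.42) and by covered bases (-0.015). Pparg, which was not called, turned from -0.34 to 1.74 with repeat transcripts left out and to 0.17 by covered bases. The number of receptor genes at least 2-fold higher, 0 by gene value, was 2 by score times length (Rara and Rxrb; 17.2% of all genes), 1 by the transcript nearest the start (Rara; 10.8%), 1 with repeat transcripts left out (Pparg; 9.98%) and 1 by covered bases (Rara; 16.7%), a measure chosen after seeing the data. The number at least 2-fold lower, 1 by gene value, was 3 by score times length (Rxra, Nr1d1 and Nr1d2; 16.9% of all genes), 3 without centering (Ppard, Rxra and Nr1d1; 24.3%), 2 with missing values set to 0.1 (Ppard and Nr4a1; 12.3%), and 0 by same-strand overlap (8.41%) or covered bases (13.7%). Nr1d1 is counted in these numbers by name only, as its transcripts lay on the other strand. By the transcript nearest the start (26.8%), and with repeat transcripts left out (11.3%), the 1 lower gene was Rxra and not Ppard. The median centered log2 ratio of -0.35 became -0.61 by score times length, -0.73 without centering and -0.015 by covered bases. By the transcript nearest the start it was -0.58. Ratios by that measure, here and above, were not shifted by centering. Transcripts with no counterpart fell to 11 in control and 4 after IL-4 with a score of at least 0.3, and their share fell as well. The cause of these changes was not tested.

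List medians also depended on the measure. By score times length the median went from -0.23 to -0.60 for the nuclear receptor family and from -0.49 to -0.99 for the clock genes, and its sign turned for the RXR partners (0.09 to -0.39), the corepressors (-0.12 to 0.38) and the LXR targets (0.32 to -0.22). By same-strand overlap the sign turned for the RXR partners (-0.35), the glucocorticoid receptor targets (0.36) and the markers of other cell types (-0.37). No paired analysis was possible because each group has 1 library, and no replicate could be left out. Scores near 0.1 carry the widest rounding ranges, and depth is unknown.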
